A study of Mus musculus with 12 samples.

Results

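Gene expression in the renal cortex of diabetic mice given sodium butyrate was compared with that of normal mice. The comparison took the 4 libraries labelled DN+NaB (diabetic nephropathy, the kidney disease of diabetes, with sodium butyrate) against the 4 labelled NC (normal control), 8 of 12 libraries in the series. It covers every gene that passed a low-count filter, 17530 of 46095 gene symbols in the table. The 4 libraries of untreated diabetic nephropathy (DN) share the fit, and for some genes and lists their values stand beside those of the other groups. All 3 groups are C57BL/6 mice of 12 weeks, and the labels give no transgene or mutant allele. How the diabetes arose and how much sodium butyrate was given, by which route and for how long, is absent from the labels. No group of normal mice given sodium butyrate is among the samples. The difference between DN+NaB and NC spans that between DN and NC and that between DN+NaB and DN. These are given for part of the genes and lists only, so a difference from NC may already be present in DN. The series counts 4 mice in each group without linking libraries to individual animals, so p-values measure only the spread between these samples, which may be technical.

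The renal cortex consists mostly of proximal tubule, whose early segments (S1 and S2) take glucose, amino acids and phosphate back from the filtrate and whose straight last segment (S3) carries many organic anion transporters. In diabetic kidney disease filtered glucose, tubular metabolism, the extracellular matrix of the glomerulus and immune cells are all known to be altered. Gut bacteria ferment fibre to butyrate, a fatty acid of short chain. Cells take it up through monocarboxylate transporters, burn it as fuel, and respond to it through inhibition of histone deacetylases and through cell surface receptors.

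Total counts ran from 58394975 to 70674015 per library. The tissue label reads renal cortex, whereas prefrontal cortex is written in the extraction text. Lrp2, the endocytic receptor megalin of the proximal tubule, lay between 8835 and 13600 CPM in every library (CPM are counts scaled to library size with TMM factors), whereas Snap25, of synapses, was at 0 counts in all 12, which allows up to 3 counts in each. Along the first principal component (55.6% of variance), scores lay between -43.4 and -41.9 in NC and between 19.3 and 27.5 in DN+NaB. Within DN+NaB, replicates 1 and 2 stood apart from replicates 3 and 4: on the second component they scored 23.4 and 20.3, against 3.29 and -1.85. The same split ran through genes induced by interferon-gamma, chosen after their values were seen: Iigp1, an immunity-related GTPase, had 1.58, 5.28, 71.8 and 203 CPM in DN+NaB replicates 1 to 4, and Gbp6 had 11.96, 14.5, 173 and 227. Mitochondrially encoded genes took 0.494% to 1.04% of counts in NC, and 0.518%, 1.16%, 2.83% and 2.83% in DN+NaB replicates 1 to 4. The tissue is bulk, so fewer cells of a type and less RNA per cell cannot be told apart in any result below.

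In DN+NaB, 1161 genes were higher than in NC (6.62% of those tested) and 1568 were lower (8.94%), 2729 in all (15.6%). Every count of called list members below is to be read beside these shares. For DN against NC, counts are to be read beside 669 higher and 774 lower of 17530 genes (8.23% for both directions together). A gene was called at an adjusted p under 0.05 in edgeR's quasi-likelihood test, with Benjamini-Hochberg adjustment over all 17530 genes and no limit on the fold. Of the called genes, 1275 differed by 1 or more on the log2 scale (444 higher, 831 lower), 250 by 3 or more, and 415 by less than 0.5. The 4 DN+NaB values lay wholly beyond the 4 NC values for 4884 genes (27.9%). They lay wholly beyond the 4 DN values for 800 genes. The median of all genes was -0.0093. Scaling by library size alone moved that median to -0.122, and with it 875 genes were higher and 2070 lower (29.7% of calls higher, against 42.5%). The fit called 1443 genes (8.23%) between DN and NC, and 4 genes (0.0228%) between DN+NaB and DN. For nearly all genes below, a difference between treated and untreated diabetic cortex was therefore not called, though 1726 genes had an unadjusted p under 0.05 there. DN+NaB against NC and DN against NC use the same NC libraries, so their values are given side by side and not as independent evidence.

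**Figure D1:**
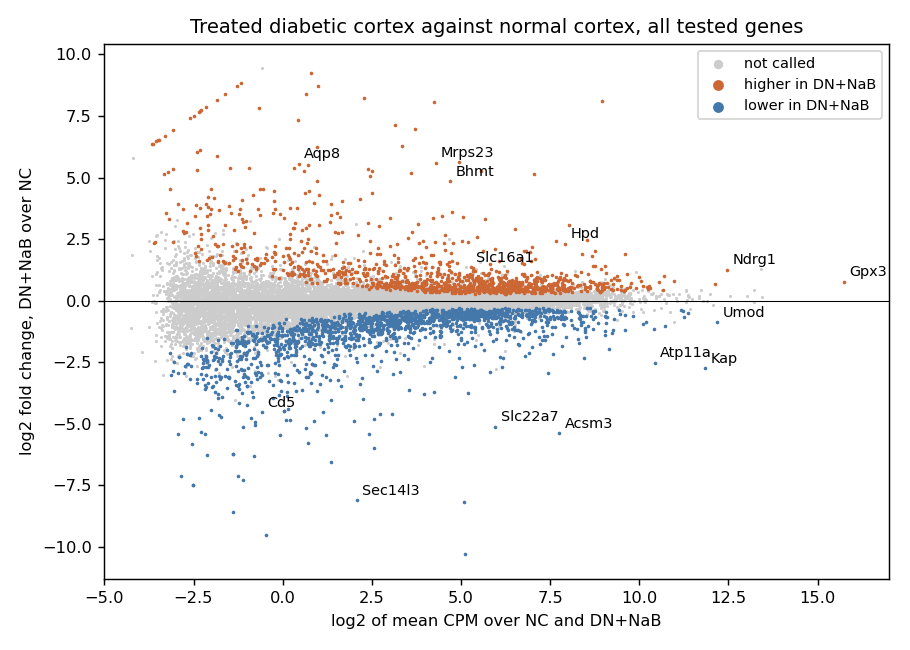
Each point is 1 of the 17530 tested genes, with the log2 of its mean CPM over NC and DN+NaB on the x axis and its log2 fold change (DN+NaB over NC) on the y axis; orange and blue mark the 1161 higher and 1568 lower genes. Kap, Atp11a, Acsm3 and Slc22a7 are abundant genes far below 0, and Gpx3, the most abundant gene labelled, lies above 0.

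Genes of amino acid, lipid and monocarboxylate handling were among those with the smallest p in the upward direction. Bhmt, the betaine-homocysteine methyltransferase that remakes methionine, had 1.898, 1.67, 1.81 and 1.58 CPM in the NC libraries and 67.7, 44.4, 41.4 and 46.3 in the DN+NaB libraries. The groups lay far apart, and the log2 fold change was 4.84 ± 0.32 (SE, edgeR adjusted p = 1.23e-06, n = 4 per group). In DN it stood at 20.8 ± 9.86 CPM (SD), and the test between DN+NaB and DN gave 1.27 ± 0.27 (adjusted p = 0.111). Hpd, which breaks down tyrosine, went from 81.3 ± 4.803 to 402 ± 71.6 CPM (2.304 ± 0.18), with 253 ± 66.6 in DN. Pla2g5, a secreted phospholipase, went from 12.7 ± 1.54 to 75.3 ± 3.05 CPM (2.57 ± 0.19), with 34.8 ± 10.3 in DN. Abcc4, an exporter of organic anions and cyclic nucleotides, rose by 1.89 ± 0.17 and Pvalb, a calcium-binding protein of the distal convoluted tubule, by 2.89 ± 0.26. Aqp8, a water channel, went from 0.0538 ± 0.0571 to 2.69 ± 0.781 CPM. Tm4sf5, a membrane protein of the tetraspanin type, had 0, 2, 0 and 0 counts in NC and 110, 667, 129 and 57 in DN+NaB (edgeR adjusted p = 2.99e-04). Cuedc1 rose by 4.38 ± 0.24, Pianp by 5.07 ± 0.38 and Ctdnep1, which encodes a phosphatase at the nuclear envelope, by 4.05 ± 0.33.

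In the downward direction, several abundant genes were at a small share of their normal level. Atp11a, a phospholipid flippase, had 2545, 1845, 2146 and 2856 CPM in NC and 456, 441, 369 and 368 in DN+NaB, and the groups did not overlap. It fell by 2.52 ± 0.15 on the log2 scale (edgeR adjusted p = 2.06e-07), and DN stood at 622 ± 66.8 CPM. Slc22a7, an organic anion transporter of the S3 segment, had 109.7, 98.2, 159 and 119.6 CPM in NC and 2.43, 3.096, 6.81 and 1.59 in DN+NaB. It fell by 5.13 ± 0.42 (adjusted p = 1.26e-05), and in DN it stood at 1.35 ± 0.3797 CPM. Acsm3, which activates medium-chain fatty acids, fell by 5.39 ± 0.43, from 421 ± 227 to 10.03 ± 3.61 CPM. Sec14l3, a lipid-binding protein, had 401, 494, 851 and 502 counts in NC and 1, 4, 2 and 0 in DN+NaB (adjusted p = 1.78e-06). Lpl, the lipoprotein lipase that frees fatty acids from circulating fat, fell by 1.85 ± 0.17, and the unconventional myosin gene Myo5a fell by 2.598 ± 0.20. Changes were -2.17 ± 0.14 for the alcohol dehydrogenase gene Adhfe1, -2.06 ± 0.11 for the splicing factor gene Rnps1 and -1.88 ± 0.16 for Mpv17l. Kcng1, a potassium channel subunit, went from 5.03 ± 0.762 to 0.0517 ± 0.0425 CPM, and Tlr12, a toll-like receptor, from 11.7 ± 1.65 to 0.179 ± 0.115. In the DN libraries Tlr12 had 8.81, 9.85, 0.136 and 5.21 CPM, and it was not called in DN against NC. Mettl7a2 went from 67.2 ± 15.1 to 0.228 ± 0.0698 CPM, but its call was lost without DN+NaB replicate 2 and it was 26.3, 0.264, 0.227 and 0.0807 CPM in the DN libraries.

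**Figure D2:**
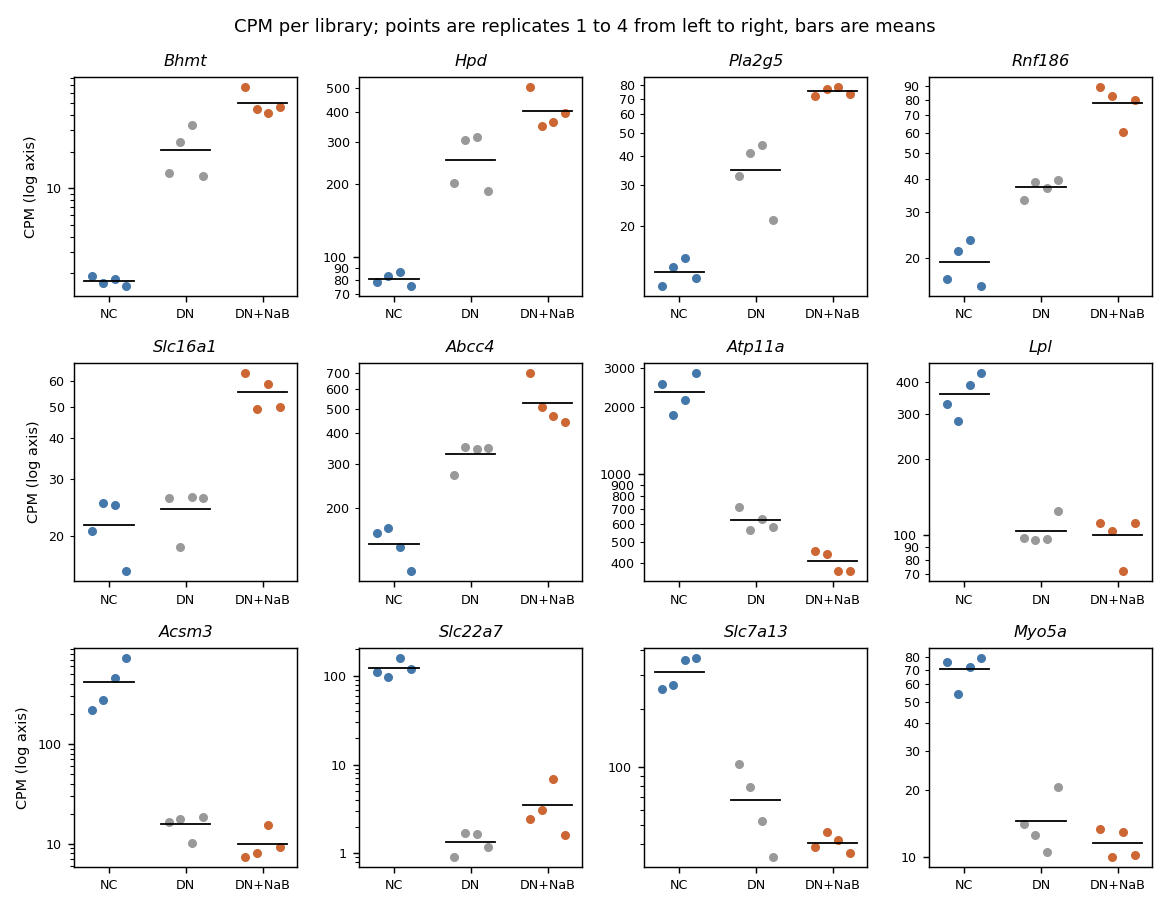
CPM on a log axis for 12 genes, 1 point per library (replicates 1 to 4 from left to right within a group) with the group mean as a bar. DN+NaB lies above NC with no overlap in the first 6 genes and below it in the last 6, and for Slc16a1 the DN libraries lie near those of NC.

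Some of the genes with the smallest p share sequence with near-identical copies, and their reads could have been assigned to either member. Atp6v0c, a subunit of the proton pump, fell from 56.5 ± 6.402 to 8.61 ± 0.444 CPM, and the copy Atp6v0c-ps2 rose from 1.205 ± 0.472 to 59.8 ± 2.46. Added together, the pair had 57.7 ± 6.85 CPM in NC against 68.4 ± 2.83 in DN+NaB. The ribosomal protein gene Rpsa fell from 585 ± 80.2 to 116 ± 29.4 CPM, whereas the copy Rpsa-ps10 rose from 55.2 ± 3.96 to 465 ± 120.2, with sums of 640.01 ± 83.8 and 581 ± 149 CPM. Other copies with changed counts were Rpsa-ps2, which fell by 3.68 ± 0.30, and Ube2d-ps, Wsb2-ps and Rpl15-ps2, which rose by 1.51 ± 0.12, 5.51 ± 0.50 and 5.37 ± 0.77. Rpl21-ps10 had 6, 0, 0 and 0 counts in NC and 94, 31, 56 and 71 in DN+NaB. Mrps23, of the mitochondrial ribosome, had 0.792 ± 0.174 CPM in NC, 37.1 ± 2.95 in DN and 38.3 ± 2.96 in the DN+NaB libraries. By RefSeq type, 923 of 13882 protein-coding genes were higher and 1361 lower, against 75 higher and 14 lower of 902 pseudogenes.

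Markers of the early and the straight proximal tubule moved in opposite directions. Of 17 tested S1 and S2 markers, 7 rose, 0 fell and 10 stayed uncalled, at a median log2 fold change of 0.64. Slc3a2, the heavy chain of amino acid exchangers, rose from 282 ± 37.4 to 694 ± 90.1 CPM (1.302 ± 0.17, edgeR adjusted p = 2.11e-04). Its light chains Slc7a7 and Slc7a8 rose by 1.06 ± 0.15 and 1.13 ± 0.19, and Slc2a2, the basolateral glucose transporter, by 0.85 ± 0.16. Slc5a2, the glucose transporter SGLT2 that is the target of a class of diabetes drugs, stood at 423 ± 78.2 CPM in NC, 495 ± 191 in DN and 754 ± 58.7 in the DN+NaB libraries. It rose by 0.83 ± 0.22 against NC (adjusted p = 0.0227), but the call was lost without NC replicate 1 or 4 or DN+NaB replicate 2 or 3. Of 12 S3 markers, 7 fell, 1 rose and 4 were not called (median -1.08). Besides Atp11a and Slc22a7, the amino acid transporter gene Slc7a13 fell by 2.93 ± 0.28 and Slc5a8, which carries butyrate and lactate with sodium, by 1.48 ± 0.18. The member that rose was the sugar transporter gene Slc5a10 (1.404 ± 0.25), named here after its value was seen. The median of the S1 and S2 list in DN against NC was 0.27 and that of the S3 list -0.85.

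Beyond the proximal tubule, markers of the thick ascending limb, the segment that reabsorbs salt without water, were mostly lower. Of 13 tested, 7 fell, 1 rose and 5 were not called (median -0.74). In DN against NC, 3 of the same 13 were lower and 0 higher (median -0.56). Slc12a1, the salt cotransporter blocked by loop diuretics, fell from 1456 ± 321 to 747 ± 121 CPM. Casr, the calcium-sensing receptor, fell by 0.74 ± 0.13 (edgeR adjusted p = 0.00144), and Cldn19, a tight junction protein, by 0.80 ± 0.19. Umod, the uromodulin gene, had 7338, 5535, 7249 and 3808 CPM in NC and 3596, 3889, 2742 and 2889 in DN+NaB; it fell by 0.87 ± 0.20 while the lowest NC value, in replicate 4, overlapped DN+NaB. Egf, the growth factor made in this segment, fell by 0.68 ± 0.18 (adjusted p = 0.0201), a call lost without NC replicate 1 or 3 or DN+NaB replicate 2, 3 or 4. The 1 member that rose was Cldn10 (0.49 ± 0.14), named after its value was seen, and without NC replicate 1 or 4 or DN+NaB replicate 2 or 4, or with scaling by library size alone, it was not called. Of 13 markers of the distal convoluted and connecting tubule, 3 rose and 2 fell, among them Wnk1, a kinase that controls salt transport, which fell by 0.62 ± 0.13, and the calcium exchanger gene Slc8a1, which rose by 0.57 ± 0.13. The other member that fell, the calcium channel gene Trpv5 (-0.39 ± 0.11), lost its call without any 1 of the 4 NC libraries or without DN+NaB replicate 1, 3 or 4, which left 1 lower. By edgeR 0 of 11 principal cell markers of the collecting duct were called (2 at an unadjusted p under 0.05, 0 by DESeq2 and 0 by limma-voom). Of 12 intercalated cell markers 1 fell (8.33%, against 8.94% of all genes). It was Aqp6 (-0.61 ± 0.16), which was not called without NC replicate 1, 2 or 3 or DN+NaB replicate 3. With 15.6% of all genes called, lists this short would hold few calls.

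Of 28 transporters of organic ions and drugs, 6 rose (21.4%, against 6.62% of all genes) and 8 fell (28.6%, against 8.94%), at a median of 0.11. Abcc3, an exporter of bile acids and conjugates, rose from 8.99 ± 2.29 to 45.5 ± 11.3 CPM (2.34 ± 0.23), and Slco3a1, an organic anion transporter, fell from 303 ± 22.97 to 158 ± 11.8 CPM (-0.93 ± 0.11). Among glomerular genes, 3 of 12 podocyte markers rose (25%, against 6.62% of all genes) and 1 fell (8.33%, against 8.94%). Npnt, a matrix ligand of integrins, rose from 157 ± 17.9 to 255 ± 32.7 CPM (0.70 ± 0.12, edgeR adjusted p = 0.00196). Nphs1, nephrin, differed by 0.30 ± 0.14 and was not called (adjusted p = 0.176). Ptpro, a phosphatase of podocytes, rose by 0.37 ± 0.12 but was not called in 9 of 18 alternative analyses, among them those without NC replicate 1, 2 or 3 or DN+NaB replicate 1, 3 or 4.

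**Figure D3:**
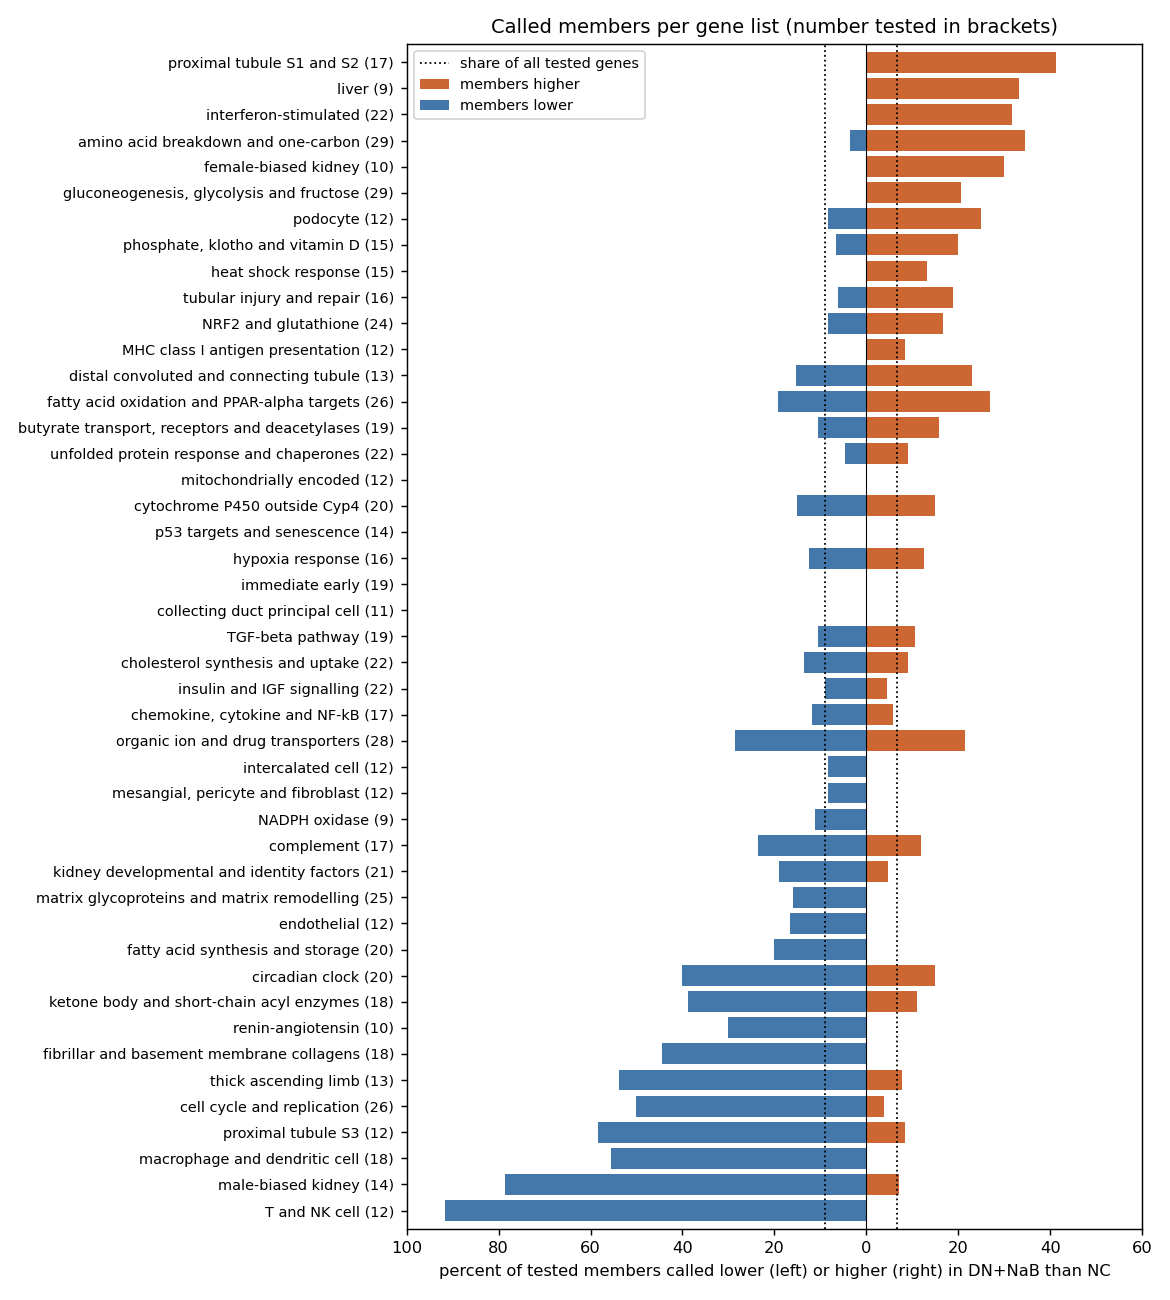
Share of tested members called higher (orange, to the right) or lower (blue, to the left) in DN+NaB than NC for each gene list with 9 or more tested members, with the number tested in brackets; the dotted lines mark the share of all tested genes, 6.62% higher and 8.94% lower. T and NK cell, male-biased and S3 lists reach farthest to the left and the S1 and S2 list farthest to the right; lists share some genes and were chosen with earlier results of these data known.

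Enzymes of amino acid breakdown and one-carbon metabolism were mostly higher or not called. Of 29 tested, 10 rose, 1 fell and 18 were not called (median 0.29), and without DN+NaB replicate 1 or 2 the number that rose was 6. Besides Bhmt and Hpd, Oat, which converts ornithine, rose by 0.71 ± 0.12 and Shmt1, a serine hydroxymethyltransferase, by 0.66 ± 0.13. The member that fell was Sardh (-0.57 ± 0.18), named after its value was seen; without any 1 of NC replicates 1 to 3 or of the DN+NaB libraries it was not called. Of 29 genes of gluconeogenesis, glycolysis and fructose use, 6 rose, 0 fell and 23 were not called (2 fell without NC replicate 4). Fbp2, a fructose bisphosphatase, rose from 12.5 ± 0.784 to 27.7 ± 3.55 CPM and the pyruvate kinase gene Pklr from 48.3 ± 3.33 to 90.2 ± 8.78. Pck1, the rate-limiting enzyme of gluconeogenesis, stood at 3865 ± 566 CPM in NC and 3837 ± 1119.8 in DN+NaB and was not called (adjusted p = 0.978).

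Lipid genes went both ways. Of 26 genes of fatty acid oxidation and PPAR-alpha targets, 7 rose and 5 fell (median 0.26), and 3 were lower without NC replicate 1 or 3 or DN+NaB replicate 2, 3 or 4. Cd36, which takes up fatty acids, fell from 123 ± 46.8 to 18.8 ± 3.64 CPM (-2.71 ± 0.30, edgeR adjusted p = 9.80e-05), with 24.5 ± 8.46 in DN. The PPAR-alpha target Cyp4a14 rose by 2.01 ± 0.27, its relative Cyp4a10 by 0.80 ± 0.16 and the thioesterase gene Acot2 by 0.68 ± 0.13; Cyp4a genes are close copies of each other and their values are uncertain. Of 20 genes of fatty acid synthesis and storage, 4 fell and 0 rose, with 2 lower without any 1 of NC replicates 1 to 3 or of DN+NaB replicates 2 to 4. The lipogenic genes Me1, for malic enzyme, and Scd1, for a desaturase, fell by 0.99 ± 0.13 and 1.17 ± 0.20. In cholesterol synthesis, 3 of 22 genes fell (13.6%, against 8.94% of all genes) and 2 rose (9.09%, against 6.62%). Without DN+NaB replicate 2, 5 fell and 1 rose, and without DN replicate 4, 6 were lower. The pathway genes Hmgcs1 and Cyp51 fell by 1.72 ± 0.24 and 1.51 ± 0.24, while Nsdhl rose by 0.90 ± 0.19. Apob, the structural protein of lipoproteins, rose from 328 ± 77.1 to 1213 ± 460.4 CPM (1.89 ± 0.26). It stood on a list of 9 liver genes, of which Alb (albumin, 1.34 ± 0.26) and Trf (transferrin, 1.203 ± 0.24) rose as well and 6 were not called.

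Genes that carry, sense or metabolise butyrate were looked at as a group. Slc16a1, the monocarboxylate transporter MCT1 that moves butyrate, lactate and ketone bodies, had 20.8, 25.3, 25.05 and 15.6 CPM in NC, 26.3, 18.5, 26.4 and 26.2 in DN and 63.7, 49.3, 58.7 and 49.9 in the DN+NaB libraries. All 4 treated libraries lay above all others. It rose by 1.35 ± 0.17 against NC (edgeR adjusted p = 1.39e-04) and by 1.19 ± 0.17 against DN (adjusted p = 0.0299). Slc5a8, the sodium-coupled carrier, went the other way, with 365 ± 71.7 CPM in NC, 199.6 ± 50.3 in DN and 131 ± 14.3 in the DN+NaB libraries. Of 19 tested transporters, receptors and deacetylases, 3 rose (15.8%, against 6.62% of all genes) and 2 fell (10.5%, against 8.94%). There were 6 higher without DN replicate 4. The deacetylase gene Hdac5 rose by 0.49 ± 0.12 and Hdac7 fell by 0.45 ± 0.11. Hdac11 rose by 0.38 ± 0.12; it is named after its value was seen and lost its call in 10 of 18 alternatives, among them without any 1 of the 8 libraries compared. Hdac2 differed by 0.03 ± 0.16 and was not called (adjusted p = 0.931). Of 18 enzymes of ketone bodies and short-chain acyl groups, 7 fell and 2 rose, with 4 lower without NC replicate 3 or 4 or DN+NaB replicate 2, and 4 higher without DN replicate 4. Besides Acsm3, the ketone body enzyme gene Bdh1 fell from 245 ± 22.4 to 81.9 ± 16.6 CPM and Acss3 by 1.05 ± 0.16, while Acsm1 rose by 0.86 ± 0.18. Rnf186, an epithelial ubiquitin ligase, had 16.7, 21.2, 23.5 and 15.7 CPM in NC, 33.1, 39.01, 36.9 and 39.5 in DN and 89.4, 82.4, 60.6 and 79.6 in the DN+NaB libraries. The 3 groups did not overlap, and both differences were called (2.02 ± 0.15 against NC and 1.07 ± 0.15 against DN, adjusted p = 2.01e-06 and 0.0299).

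Genes that are known to be higher in male than in female kidneys were lower. Of 14 tested, 11 fell, 1 rose and 2 were not called (median -1.18); in DN against NC, 9 of the same 14 were lower and 1 higher. Kap, the androgen-regulated kidney protein, had 4043, 6618, 7934 and 6823 CPM in NC and 607, 1272, 973 and 937 in DN+NaB, with no overlap. It fell by 2.75 ± 0.38 (edgeR adjusted p = 5.03e-04). Besides Acsm3 and Slc7a13, which the tubule and ketone paragraphs also give, Cndp2, a dipeptidase, fell by 1.21 ± 0.17 and Hsd17b11, a steroid dehydrogenase, by 0.89 ± 0.13. The member that rose was Cyp4a12a (2.41 ± 0.36), named after its value was seen. Female-biased genes were tested in 10 cases, and the 3 that rose were Abcc3, Cyp4a14 and Slc7a12 (1.86 ± 0.53), of which Slc7a12 was not called in 8 of 18 alternatives, among them without any 1 of NC replicates 1 to 3 or of DN+NaB replicates 2 to 4.

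Some peptidases of the brush border were lower. Ace, the angiotensin-converting enzyme, fell from 532 ± 66.02 to 189 ± 42.3 CPM (-1.49 ± 0.20, edgeR adjusted p = 2.46e-04) and Mme, neprilysin, by 0.96 ± 0.23. In DN, Ace stood at 171 ± 45.5 CPM and Mme at 50.1 ± 14.1. Of 10 tested renin-angiotensin genes, 3 fell and 7 were not called. Mep1a, a meprin subunit chosen after its value was seen, fell by 1.03 ± 0.16.

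Collagen genes were lower or not called, and none was higher. Of 18 fibrillar and basement membrane collagens, 8 fell (median -0.41), with 4 lower without DN+NaB replicate 2 or 3. In DN against NC, 9 of the same 18 were lower and 0 higher (median -0.61). Col15a1, a collagen of basement membrane zones, fell from 89.4 ± 16.5 CPM to 28.8 ± 2.39 and the fibrillar Col5a2 from 51.1 ± 3.22 to 5.96 ± 0.828. In DN they stood at 20.4 ± 3.67 and 7.05 ± 5.05 CPM. Col4a3 and Col4a5, type IV chains found in the glomerular filter, fell by 0.73 ± 0.17 and 0.68 ± 0.13. Col1a1 fell by 2.28 ± 0.61 (edgeR adjusted p = 0.0287), a call lost without NC replicate 1 or 4 or any 1 of the DN+NaB libraries, and with no filter beyond 1 count. Col4a1 and Fn1, fibronectin, differed by -0.11 ± 0.15 and -0.37 ± 0.25 and were not called (adjusted p = 0.648 and 0.351). Of 25 matrix glycoproteins and remodelling genes, 4 fell (16%, against 8.94% of all genes) and 0 rose, with 2 lower without DN+NaB replicate 2, 3 or 4. In DN against NC, 7 of the 25 were lower and 0 higher. The collagen-binding Sparc fell by 1.06 ± 0.14 and periostin (Postn) by 1.78 ± 0.42. Of 19 genes of the TGF-beta pathway, 2 rose (10.5%, against 6.62% of all genes) and 2 fell (10.5%, against 8.94%; median -0.18). There was 1 higher without any 1 of NC replicates 1 to 3 or of the DN+NaB libraries. The lower count was 1 without NC replicate 3 or DN+NaB replicate 2, 3 or 4, 4 with the replicate block and 5 without DN replicate 4. The ligand gene Bmp6 rose by 0.91 ± 0.12 and Smad3, which carries the signal to the nucleus, by 0.38 ± 0.12, while Ltbp4, which binds latent TGF-beta, fell by 0.97 ± 0.21 and the co-receptor gene Tgfbr3 by 0.39 ± 0.11. Smad3 and Tgfbr3 lost their calls in 11 and 4 of 18 alternatives, and Tgfb1 differed by -0.29 ± 0.14 (adjusted p = 0.172).

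Markers of T and NK cells were the list with the largest share of lower genes among those drawn in the plot of gene lists. Of 12 tested, 11 fell, 0 rose and 1 was not called (median -3.0); the median in DN against NC was -0.98, with 3 lower. The sum of the 12 genes was 21.2 to 36.04 CPM in normal libraries, 8.28 to 26.2 in untreated diabetic and 3.54 to 4.97 in treated diabetic libraries. Cd5, a surface protein of T cells, had 84, 82, 122 and 50 counts in NC, 29, 40, 25 and 39 in DN and 5, 4, 3 and 1 in the DN+NaB libraries. Its levels did not overlap between the 3 groups except that the lowest NC library (0.693 CPM) lay below the highest DN library (0.704). It fell by 4.54 ± 0.49 against NC (edgeR adjusted p = 4.61e-05) and by 3.31 ± 0.49 against DN (adjusted p = 0.0376). Cxcr3, the receptor that draws activated T cells to interferon-induced chemokines, had 2.71, 1.81, 1.96 and 1.51 CPM in NC, 1.38, 1.003, 0.787 and 0.856 in DN and 0.238, 0.232, 0.165 and 0.172 in the DN+NaB libraries. It fell by 3.298 ± 0.31 against NC (adjusted p = 1.30e-05) and by 2.31 ± 0.30 against DN (adjusted p = 0.0299). Cd4 fell by 2.599 ± 0.31, and Nkg7, of cytotoxic granules, fell by 2.502 ± 0.29. The granule protease gene Gzma, the member that was not called, differed by -1.02 ± 0.53. Cxcl9, a ligand of Cxcr3, fell by 2.59 ± 0.55. Ccl5, made by T cells among others, fell by 2.82 ± 0.50, and Cxcl16, a membrane-bound chemokine, rose by 2.96 ± 0.38. Cxcl9, Ccl5 and Cxcl16 were the only called members of 17 tested chemokine, cytokine and NF-kB genes. On that list 1 rose (5.88%, against 6.62% of all genes), 2 fell (11.8%, against 8.94%) and 14 were not called (median -0.044).

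The antibody genes that passed the low-count filter were low in both diabetic groups. The 10 tested immunoglobulin V segments passed the low-count filter through their NC values. That all 10 were lower in DN+NaB, and their sums with them, was thus set in advance. Their sum was 5.31 to 32.7 CPM in normal libraries, 0.106 to 0.666 in untreated and 0.0993 to 1.3 in treated diabetic libraries. Igkv9-124 had 289, 13, 36 and 47 counts in NC and 0 in each DN+NaB library, and Igkv10-96 went from 3.19 ± 2.26 to 0.0561 ± 0.0641 CPM. Jchain, which joins antibody units, fell from 10.4 ± 7.21 to 0.242 ± 0.1103 CPM (-5.43 ± 0.64). It stood on a list of 10 B and plasma cell genes, of which only 3 were tested and 2 fell (66.7%, against 8.94% of all genes). The other that fell, Cd79b (-1.55 ± 0.44), lost its call in 5 of 18 alternatives. Mzb1 differed by -0.88 ± 0.31 and was not called (edgeR adjusted p = 0.0715). Of 18 macrophage and dendritic cell markers, 10 fell and 0 rose (median -0.84), with 5 lower without NC replicate 1 or 3, 6 without DN+NaB replicate 1 and 4 without DN+NaB replicate 2. In DN against NC, 2 of the same 18 were lower and 1 higher (median -0.28). Csf1r, the growth factor receptor of macrophages, fell from 111 ± 8.08 to 59.7 ± 3.22 CPM (-0.89 ± 0.12), the mannose receptor gene Mrc1 by 1.57 ± 0.24, Cd68 by 1.21 ± 0.21 and Adgre1 by 1.22 ± 0.28. Rac2, the GTPase of the phagocyte oxidase, fell by 1.41 ± 0.24. It was the 1 called of 9 tested NADPH oxidase genes (11.1% lower, near the 8.94% of all genes), at a median of 0.029. Of 12 endothelial markers, Tek, the angiopoietin receptor, fell by 0.71 ± 0.12 and Cdh5 by 0.37 ± 0.11; Cdh5 was not called without NC replicate 1, 2 or 3 or DN+NaB replicate 2, 3 or 4, or with the replicate block, and the other 10 were not called. By edgeR, DESeq2 and limma-voom, 0 of 4 neutrophil and 0 of 6 red blood cell genes were called, with 0 at an unadjusted p under 0.05. At the edgeR share of 15.6% of all genes, lists of 4 and 6 genes would hold few or no calls.

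**Figure D4:**
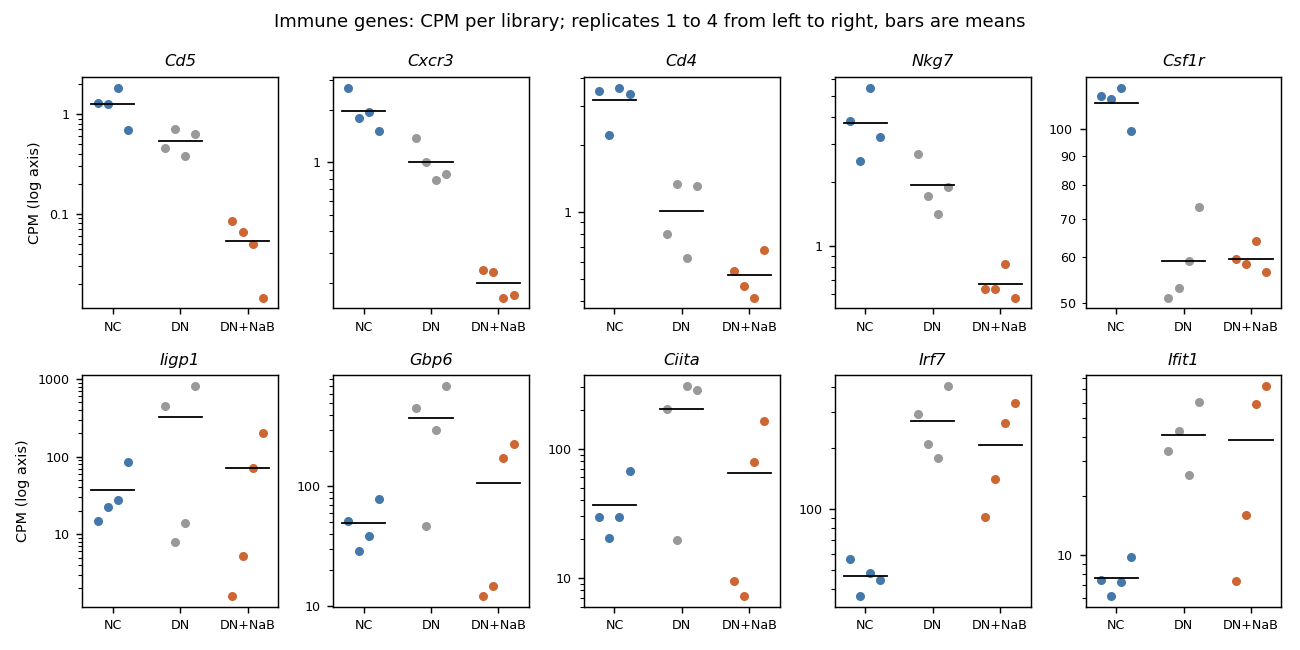
CPM on a log axis for 10 immune genes, 1 point per library (replicates 1 to 4 from left to right within a group) with the group mean as a bar. The T cell, NK cell and macrophage genes of the upper row are low in all 4 DN+NaB libraries, whereas Iigp1, Gbp6, Ciita and Ifit1 are low in DN+NaB replicates 1 and 2 and high in replicates 3 and 4.

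Some interferon-stimulated genes were higher, with a wide spread inside DN+NaB. Of 22 tested, 7 rose, 0 fell and 15 were not called (median 1.05); 4 were higher without NC replicate 1, 2 or 3 or DN+NaB replicate 3 or 4, and 13 without DN+NaB replicate 1. Irf7, which drives transcription of interferon genes, had 56.5, 36.9, 47.98 and 44.2 CPM in NC and 90.97, 139.6, 266 and 332 in DN+NaB, and the groups did not overlap. It rose by 2.16 ± 0.38 (edgeR adjusted p = 0.00281), with 271 ± 101 CPM in DN. Xaf1 rose by 2.65 ± 0.37, Usp18, which removes the ubiquitin-like Isg15 from proteins, by 1.72 ± 0.29, and the antiviral GTPase gene Mx2 by 2.64 ± 0.58, with overlapping groups for Mx2. Summed over the list, normal libraries held 353 to 602 CPM, untreated diabetic ones 912 to 2249 and treated ones 411 to 1817. In DN against NC, 10 of the same 22 were higher and 0 lower (median 1.26). Ifit1, an antiviral RNA-binding protein named after its value was seen, had 7.35, 15.99, 58.9 and 72.9 CPM in DN+NaB replicates 1 to 4, against 6.14 to 9.71 in NC. It rose by 2.35 ± 0.62 (adjusted p = 0.0276), a call lost in 8 of 18 alternatives, among them without NC replicate 1, 2 or 3 or DN+NaB replicate 3 or 4. The part that the split inside DN+NaB plays in these results was not tested beyond leaving out single libraries.

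Sequence upstream of the interferon-stimulated genes Ifit1, Isg15 and Ifit3 is shown because these are classical targets with the response element of the interferon-activated complex ISGF3 close to their start. The stretches come from RefSeq promoter windows (GRCm38.p6, 250 bases before each start), read 5′ to 3′ on the gene's strand, and capitals mark matches on either strand to the letters GAAANNGAAA, which can overlap each other.
Ifit1: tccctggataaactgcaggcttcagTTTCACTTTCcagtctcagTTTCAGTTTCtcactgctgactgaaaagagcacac
Isg15: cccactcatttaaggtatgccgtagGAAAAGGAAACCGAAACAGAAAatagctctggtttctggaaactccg
Ifit3: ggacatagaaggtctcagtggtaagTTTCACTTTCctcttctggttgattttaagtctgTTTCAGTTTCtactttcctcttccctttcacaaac
They lie at chr19:34640760-34640838 on the plus strand, chr4:156200850-156200921 on the minus strand and chr19:34583348-34583441 on the plus strand. Of the 16 windows of 14 interferon-list genes, 8 held such a match, against 978 of all 32851 windows (2.98%). A match is only a description of these letters. Isg15 went from 2.08 ± 0.375 to 4.699 ± 2.64 CPM (1.18 ± 0.36), a call lost in 10 of 18 alternatives, among them without any 1 of the NC libraries or DN+NaB replicate 3 or 4, and Ifit3 differed by 1.58 ± 0.49 (edgeR adjusted p = 0.0503). Both were named after their values were seen.

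In the complement system, C3, the central protein, rose from 63.7 ± 13.4 to 344 ± 69.7 CPM (2.43 ± 0.40, edgeR adjusted p = 0.00187), with 854 ± 471 in DN. C4b rose by 3.102 ± 0.78, a call lost without any 1 of the NC libraries or DN+NaB replicate 4 and with limma-voom, and its close copy C4a had 1, 1, 0 and 2 counts in NC and 85, 66, 207 and 334 in DN+NaB. Among 17 complement genes 2 rose (11.8%, against 6.62% of all genes) and 4 fell (23.5%, against 8.94%), at a median of -0.29. C1qc (-0.71 ± 0.18) and C1qb (-0.62 ± 0.18) were among those that fell, with overlapping groups. They lost their calls in 2 and 5 of 18 alternatives. Without NC replicate 1 or DN+NaB replicate 2 the lower count was 0, and without NC replicate 2 it was 2. Without NC replicate 3 or DN+NaB replicate 1 or 3 it was 1, and without any 1 of the NC libraries or DN+NaB replicate 4 the higher count was 1. Of 12 genes of MHC class I antigen presentation, 1 rose (8.33%, against 6.62% of all genes), 0 fell and 11 were not called (median 0.48). In DN against NC, 4 of the 12 were higher and 0 lower (median 1.75). The member that rose was H2-K1 (1.47 ± 0.43), which 8 of 18 alternatives did not call, among them those without any 1 of the NC libraries or DN+NaB replicate 1, 3 or 4. H2-Q4 and H2-Q7 differed by -2.15 ± 1.18 and -1.23 ± 0.48 and were not called (adjusted p = 0.256 and 0.101); MHC class I genes are close copies of each other and their values are uncertain.

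Most markers of tubular injury were not called. Of 16, 3 rose (18.8%, against 6.62% of all genes), 1 fell (6.25%, against 8.94%) and 12 were not called, and without DN replicate 4 there were 5 higher and 4 lower, and 2 lower without NC replicate 4 or DN+NaB replicate 1. In DN against NC, 3 of the same 16 were higher and 0 lower (median 0.47). Krt8, an epithelial keratin, rose by 0.47 ± 0.10, clusterin (Clu) by 0.72 ± 0.18 (not called without NC replicate 4) and Sox9, a factor of tubule repair, by 1.38 ± 0.41 (not called in 7 of 18 alternatives, among them without NC replicate 1, 2 or 3 or DN+NaB replicate 1 or 4), and Vim fell by 0.61 ± 0.11. Havcr1 (KIM-1) had 0.964, 0.155, 0.377 and 1.04 CPM in NC and 0.0851, 0.0993, 0.444 and 0.115 in DN+NaB, and Lcn2 (NGAL) had 5.04, 4.27, 5.47 and 4.83 and 4.9, 3.81, 2.699 and 10.5. Neither was called by edgeR (adjusted p = 0.447 and 0.945), nor was the chemokine gene Ccl2 (-0.09 ± 1.33, adjusted p = 0.972) or the intestinal-type glucose transporter gene Slc5a1 (-0.20 ± 0.12, adjusted p = 0.271). Gpx3, a glutathione peroxidase that the tubule secretes into plasma, rose from 40652 ± 6271 to 69391 ± 4129 CPM (0.77 ± 0.14). Of 24 genes of the NRF2 and glutathione list, 4 rose (16.7%) and 2 fell (8.33%), with 1 lower without DN+NaB replicate 4. Gclm, of glutathione synthesis, fell by 0.81 ± 0.11, while Srxn1 rose by 0.68 ± 0.12 and Gsta1 by 3.54 ± 0.53. Of 22 genes of the unfolded protein response and chaperones, 2 rose (9.09%) and 1 fell (4.55%), near the shares of all genes (median 0.22). The chaperone gene Calr rose by 0.60 ± 0.16 and Ddit3, a stress-induced transcription factor, by 0.82 ± 0.22, while Edem1 fell by 0.58 ± 0.11. The higher count was 0 without NC replicate 4 and 1 without NC replicate 1, 2 or 3 or DN+NaB replicate 1, 2 or 4, and without DN replicate 4 the lower count was 2. Of 16 hypoxia genes, 2 rose (12.5%, against 6.62% of all genes) and 2 fell (12.5%, against 8.94%), at a median of -0.0039. Ndrg1 rose from 3301 ± 1057 to 7917 ± 791 CPM and the vasodilator peptide gene Adm by 0.87 ± 0.19, while Bnip3, of mitophagy, fell by 0.46 ± 0.12 and the pyruvate dehydrogenase kinase gene Pdk1 by 0.39 ± 0.12. The lower count was 0 without NC replicate 1 or 3 or DN+NaB replicate 2 or 4, and 1 without DN+NaB replicate 1 or 3. Of 19 immediate early genes edgeR called 0 (3 at an unadjusted p under 0.05, 2 by DESeq2, 0 by limma-voom). Of 14 p53 targets it also called 0 (3 at an unadjusted p under 0.05, 2 by DESeq2, 1 by limma-voom); Cdkn1a, a cell cycle inhibitor, differed by 1.38 ± 0.47 with an edgeR adjusted p of 0.0721. Of 12 mitochondrially encoded genes edgeR called 0 (3 at an unadjusted p under 0.05, 2 by DESeq2, 0 by limma-voom). These lists with 0 calls stand against 15.6% of all tested genes.

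Clock genes moved in both directions. The circadian clock runs on Arntl with Clock or Npas2, which drive the Per, Cry and Nr1d genes that then repress them. Of 20 tested clock genes, 8 fell, 3 rose and 9 were not called (median -0.57); in DN against NC, 1 was called, and the median was 0.05. Cry1, a repressor, had 19.2, 20.8, 19.4 and 10.1 CPM in NC, 11.7, 5.75, 4.56 and 10.04 in DN and 3.78, 2.28, 1.48 and 1.81 in the DN+NaB libraries. All 4 treated libraries were below all others, and it fell by 2.89 ± 0.37 against NC (edgeR adjusted p = 2.24e-04). Against DN, Cry1 differed by -1.78 ± 0.36 and was not called (adjusted p = 0.0842). Per3 had 12.5, 9.08, 9.73 and 17.2 CPM in NC, 9.36, 9.75, 8.55 and 5.101 in DN and 2.81, 2.65, 3.46 and 2.73 in the DN+NaB libraries, and it fell by 2.06 ± 0.24 (adjusted p = 8.92e-05). Npas2 had 1.102, 2.24, 1.79 and 0.596 CPM in NC and 19.5, 14.5, 12.6 and 11.97 in DN+NaB, with no overlap, and it rose by 3.35 ± 0.62 (adjusted p = 0.00362). Among genes named after their values were seen, Per2 fell by 1.605 ± 0.33, Tef by 0.65 ± 0.14, Nr1d1 rose by 2.02 ± 0.42, Bhlhe41 rose by 1.102 ± 0.28 (not called without NC replicate 1), and Arntl differed by 1.396 ± 0.53 (adjusted p = 0.0987). NC replicate 4 differed from the other NC libraries in several of these genes, with 44.2, 19.3, 25.3 and 91.5 CPM of Nr1d1 and 5.91, 8.22, 5.98 and 1.401 of Arntl in NC replicates 1 to 4. The labels give no hour of collection, and its part in these values was not tested.

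**Figure D5:**
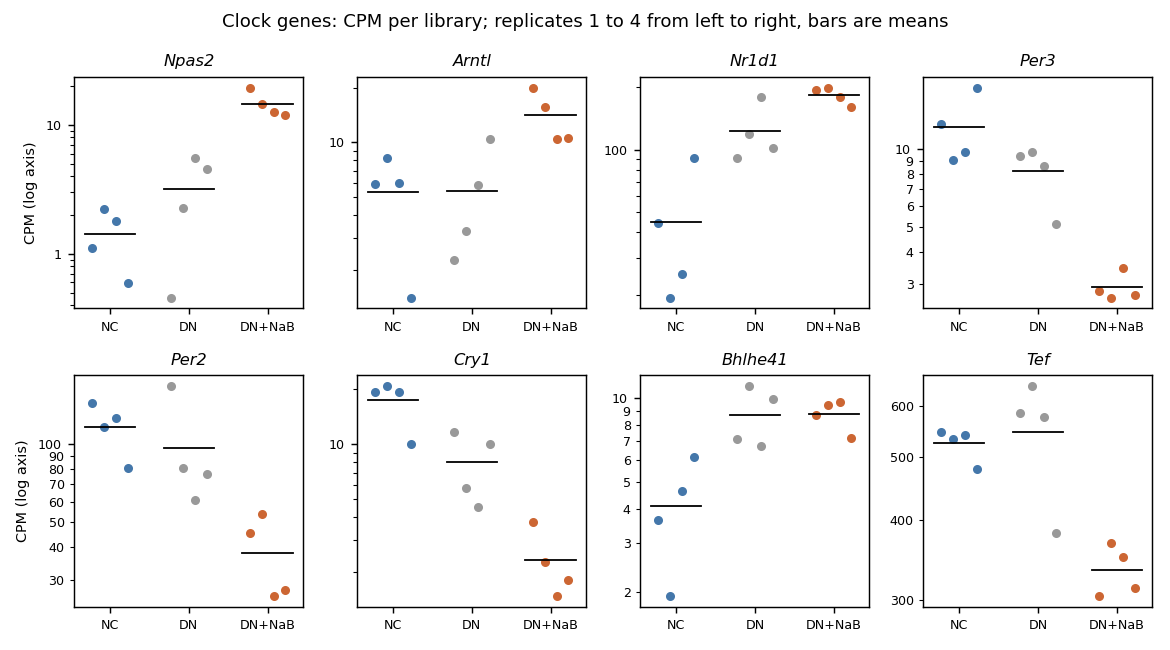
CPM on a log axis for 8 clock genes, 1 point per library (replicates 1 to 4 from left to right within a group) with the group mean as a bar. Npas2, Nr1d1 and Bhlhe41 lie higher and Per3, Per2, Cry1 and Tef lower in all 4 DN+NaB libraries than in the NC libraries, and NC replicate 4 stands apart for Arntl, Nr1d1 and Cry1.

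The promoters of Cry1, Per3 and Tef are shown because their clock elements lie within the same RefSeq windows. Capitals mark the E-box CACGTG, which Arntl and its partners bind, in Cry1 and Tef, and the D-box TTANGTAA, bound by Tef and its relatives, in Per3, on either strand; the motifs do not overlap each other.
Cry1: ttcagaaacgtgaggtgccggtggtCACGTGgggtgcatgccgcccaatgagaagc
Tef: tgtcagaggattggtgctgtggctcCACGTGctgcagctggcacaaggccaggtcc
Per3: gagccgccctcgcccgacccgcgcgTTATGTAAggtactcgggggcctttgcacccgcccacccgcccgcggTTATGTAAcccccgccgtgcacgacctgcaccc
They lie at chr10:85185084-85185139 on the minus strand, chr15:81802521-81802576 on the plus strand and chr4:151044791-151044895 on the minus strand. Of the 22 windows of 17 clock genes, 6 held an E-box, against 1978 of all 32851 windows (6.02%), and 1 held a D-box, against 677 windows (2.06%).

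Genes of the cell cycle and of DNA replication were mostly lower or not called. Of 26 tested, 13 fell, 1 rose and 12 were not called (median -0.92), with 4 lower without NC replicate 4, 5 without DN+NaB replicate 2, 8 without DN+NaB replicate 3 and 7 without DN+NaB replicate 4. In DN against NC, 6 of the same 26 were lower and 0 higher (median -0.57). Mcm6, of the replication helicase, had 31.4, 27.5, 29.5 and 33.7 CPM in NC and 12.2, 15.4, 11.2 and 12.1 in DN+NaB, and it fell by 1.26 ± 0.13 (edgeR adjusted p = 2.35e-05). Mcm3 fell by 0.78 ± 0.17 and Rrm2, of nucleotide synthesis, by 1.62 ± 0.33, while the thymidylate synthase gene Tyms rose by 0.58 ± 0.13. Mki67, the proliferation marker, named after its value was seen, had 9.31, 11.6, 8.49 and 32 CPM in NC replicates 1 to 4; it fell by 2.39 ± 0.61, and the call was lost without NC replicate 4 or DN+NaB replicate 3 and with no filter beyond 1 count.

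In mineral handling, Cyp24a1, which inactivates vitamin D, had 65.7, 87.6, 110.0 and 191 CPM in NC, 198, 372, 78.5 and 349.7 in DN and 568, 847, 606 and 508 in the DN+NaB libraries. All 4 treated libraries lay above all others, and it rose by 2.48 ± 0.47 against NC (edgeR adjusted p = 0.00434). Against DN, Cyp24a1 differed by 1.34 ± 0.45 and was not called (adjusted p = 0.350). Kl, the co-receptor klotho, had 7.103, 5.96, 4.94 and 5.69 CPM in NC and 7.84, 55.5, 8.33 and 34.1 in DN+NaB, so the high values came from replicates 2 and 4. It rose by 2.16 ± 0.57 (adjusted p = 0.0246), a call lost in 10 of 18 alternatives, among them without any 1 of the NC libraries or DN+NaB replicate 2 or 4. Of 15 genes on that list 3 rose and 1 fell, with 7 higher when only the 8 libraries were fitted, 1 higher without any 1 of the NC libraries or DN+NaB replicate 2 or 4, and 0 lower without any 1 of the NC libraries or DN+NaB replicate 1, 3 or 4. The calcium-binding Calb1, the third that rose (0.52 ± 0.16), lost its call in 11 of 18 alternatives, among them without any 1 of the NC libraries or of DN+NaB replicates 2 to 4.

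Of 21 kidney developmental and identity factors, 1 rose (4.76%, against 6.62% of all genes) and 4 fell (19%, against 8.94%). Irx1, a transcription factor of nephron segments, fell from 81.2 ± 9.05 to 31.7 ± 5.15 CPM (-1.36 ± 0.13, edgeR adjusted p = 1.30e-05) and its relative Irx2 by 0.84 ± 0.17. The bile acid receptor gene Nr1h4 fell by 0.71 ± 0.12, Tfap2b by 0.46 ± 0.13 and Maf rose by 0.73 ± 0.14. Of 20 cytochrome P450 genes outside the Cyp4 family, 3 rose (15%, against 6.62% of all genes) and 3 fell (15%, against 8.94%). Besides Cyp24a1 and Cyp51, Cyp2d26 rose by 1.41 ± 0.17 and Cyp27a1, which makes bile acids and vitamin D metabolites, by 0.71 ± 0.13, while Cyp7b1, an oxysterol hydroxylase, fell by 2.31 ± 0.51 and Cyp2j13 by 2.14 ± 0.52. Tfap2b, Cyp7b1 and Cyp2j13 were named after their values were seen, and the calls of Tfap2b and Cyp2j13 were lost in 6 and 3 of 18 alternatives. Of 22 genes of insulin and IGF signalling, 1 rose (4.55%, against 6.62% of all genes) and 2 fell (9.09%, against 8.94%). There was 1 lower without NC replicate 3 or DN+NaB replicate 2 or 3, and 4 lower without DN+NaB replicate 1 or DN replicate 4. Igfbp5, a binding protein of insulin-like growth factors, rose from 693 ± 74.05 to 1337 ± 155 CPM and Igf1 fell by 1.54 ± 0.29 and the insulin receptor substrate gene Irs1 by 0.47 ± 0.14, the latter not called in 6 of 18 alternatives. Fabp4, a fatty acid binding protein of fat cells and vessels, fell by 1.44 ± 0.30, and the other 3 tested adipocyte genes were not called. Akr1a1, an aldehyde reductase chosen after its value was seen, rose from 1459 ± 279.7 to 2556 ± 197 CPM.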

How the data were processed

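Messenger RNA was measured in 12 libraries. The deposited table holds whole-number read counts per gene symbol, not normalized, made by the authors; HISAT2 2.0.4 is named per the submitters' processing notes. How reads were counted, whether by strand, and with which annotation and build is not given in the sources used here, so copies, overlapping and antisense genes are uncertain. The only coordinates printed are those of the RefSeq promoter stretches. Each column matched 1 sample title, and 0 columns were unused.

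Genes were filtered with filterByExpr by group, scaled with TMM factors and fitted in 1 edgeR quasi-likelihood model (edgeR 4.0.16, R 4.3.3) over all 12 libraries, robustly estimated, with no term besides group. Tests are two-sided. CPM is given as mean ± SD and log2 fold changes with their SE. Principal components used the 500 most variable genes at a prior count of 2. No 2 libraries of a group agreed within sampling noise (smallest chi-square per degree of freedom 23.6). Alternatives used RLE factors, library size only, other filters, DESeq2 1.42.0, limma-voom 3.58.1, a replicate block, 8 libraries, and single libraries left out.

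The comparison and the 51 gene lists were chosen with earlier results of these data known. Named are, per direction, the 12 genes with the smallest adjusted p and the 8 with the largest change (called, groups apart, at least 1 CPM, no predicted or clone names), genes called against both NC and DN, up to 4 list members with the smallest p, and a set list of markers. That rule gave 231 genes beside a few whose results are not reported here. Another 21 were added after their values were seen, as were the genes that check tissue and libraries. RefSeq (GRCm38.p6) matched 16391 tested symbols and gave gene types and promoters.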

Additional observations from a re-analysis of the deposited data

Results flagged for a closer look

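For each of the 252 genes examined, the 4 libraries of each group were compared, and a library stood apart where the share of the group's range taken by its gap to the nearest other passed Dixon's critical value. This was so in 75 of 756 groups of 4. Chance gives about 1 in 20 for normally distributed values, which CPM from low counts are not. Some flags rest on single counts, such as Igkv9-124 with 0, 0, 1 and 0 counts in DN. The number of flags is therefore not read as an excess over chance. The values below are CPM in the library that stood apart.

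NC replicate 4 stood apart for 16 genes: Aqp8 at 0.139, Rpsa at 465, Mettl7a2 at 44.8, Pvalb at 12.9, Scnn1g at 70.3, Aqp6 at 81.98, Star at 0.2497, Clu at 282, Sox9 at 1.18, Mx2 at 2.01, Hspb8 at 5.34, Dnajb1 at 42.5, Cry1 at 10.1, Adm at 3.43, Mme at 117 and Mki67 at 32.

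NC replicate 1 stood apart for 2 genes: Rpl21-ps10 at 0.0918 and Igkv9-124 at 4.42. NC replicate 2 stood apart for 3 genes: Tm4sf5 at 0.03095, Cd4 at 2.23 and Bnip3 at 74.3. NC replicate 3 stood apart for 3 genes: Cfd at 2.27, Hsd3b1 at 0.0151 and Sparc at 217.

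DN+NaB replicate 1 stood apart for 4 genes: Cdh5 at 71.2, Lamc1 at 137, Gsta1 at 3.18 and Cd36 at 13.4. DN+NaB replicate 2 stood apart for 5 genes: Tm4sf5 at 11.04, Slc7a8 at 827, Trpv5 at 33.8, Postn at 0.199 and Scd1 at 137. DN+NaB replicate 3 stood apart for 6 genes: Casr at 135, Hba-a2 at 5.53, Hbb-bs at 79.3, Hbb-bt at 15.9, Col5a2 at 4.72 and Havcr1 at 0.444. DN+NaB replicate 4 stood apart for 1 gene: Wnk1 at 787.

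DN replicate 4 stood apart for 24 genes: Ube2d-ps at 17.7, Adhfe1 at 56.8, Lpl at 125, Rgs5 at 42.1, Cd68 at 6.57, S100a8 at 3.697, Cxcr2 at 2.21, Retnlg at 3.73, Hba-a2 at 12.3, Hbb-bs at 137, Hbb-bt at 27.5, Plin4 at 14.1, Col5a2 at 14.6, Relb at 11.8, Ncf1 at 12.8, Cyp51 at 24.8, Bdh1 at 47.1, Perp at 28.8, Cdkn1a at 45.7, Gdf15 at 38.5, Havcr1 at 16.6, Lcn2 at 241, Col1a1 at 114 and Ccl2 at 2.86. DN replicate 1 stood apart for 4 genes: Mettl7a2 at 26.3, Jchain at 0.533, Bnip3 at 88.1 and Abcc4 at 271. DN replicate 2 stood apart for 2 genes: Slc16a1 at 18.5 and Cfd at 1.53. DN replicate 3 stood apart for 5 genes: Ctdnep1 at 9.48, Rpsa-ps2 at 0.272, Igkv9-124 at 0.0151, Cd79b at 1.41 and Krt8 at 151.

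The difference between treated and untreated diabetic cortex was itself called for 4 genes by edgeR. The log2 fold change of DN+NaB over DN was -3.31 for Cd5, -2.31 for Cxcr3, 1.07 for Rnf186 and 1.19 for Slc16a1. How these 4 and NC stand to each other is given with their values per library above.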

How the results depend on the processing

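The lower count stayed within 1.5 times of 1568 in each alternative that kept all samples, and the higher count within 1.5 times of 1161 except with the 8 libraries only, which gave 1783. DESeq2 called 3560 genes (1531 higher, 2029 lower), 2726 of the 2729 among them. With 1 library left out, 790 to 1570 genes were higher and 1043 to 2146 lower; the largest counts came without DN replicate 4, an alternative added after the data were seen, and the smallest without DN+NaB replicate 2. Same-numbered NC and DN+NaB libraries had correlated deviations over 13540 genes at r = 0.317, 0.208 and 0.324 for numbers 1, 2 and 4, each the best match of its NC library, but -0.127 for number 3. Because that pair was below 0.1 and the labels name no shared origin, the numbers were not taken to pair the samples. The other 3 are a hint from the data only, and NC replicate 4 matched DN+NaB replicate 3 nearly as well (r = 0.318). A fit with the replicate block gave 1260 higher and 1631 lower and shared 2504 calls with the reported fit.

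Of the 231 reported genes that the rule names, 165 were called, of which 126 kept the call in all 18 alternatives, 6 kept it but were not tested in 1 or more of them, and 33 lost it in 1 or more; of 66 not called, 23 were called in 1 or more. Of the 21 genes added later, 18 were called and 9 lost it. Genes that lost the call were C4a, Mettl7a2, Trpv5, Aqp6, Ptpro, Cdh5, Rgs5, Cd79b, Clu, Sox9, Hspg2, Lamc1, Tgfbr3, Smad3, H2-K1, C1qc, C4b, C1qb, Calr, Ddit3, Hspb8, Dnajb1, Fasn, Acaca, Slc7a12, Bnip3, Pdk1, Irs1, Kl, Calb1, Slc5a2, Col1a1, Egf, Cldn10, Hdac11, Sardh, Bhlhe41, Ifit1, Isg15, Mki67, Tfap2b and Cyp2j13. Apart from single libraries left out, the call was lost with scaling by library size only for Ptpro, Sox9, Smad3, Ddit3, Dnajb1, Calb1, Cldn10, Hdac11 and Isg15; with no filter beyond 1 count for Ptpro, Smad3, H2-K1, Dnajb1, Acaca, Slc7a12, Kl, Calb1, Col1a1, Hdac11, Ifit1, Isg15 and Mki67. It was also lost with at least 1 CPM in 4 libraries for Ptpro, Smad3, Dnajb1, Calb1 and Isg15; with the 8 libraries only for Kl and Ifit1; with limma-voom for C4a, Sox9, C4b, Fasn, Acaca, Slc7a12, Kl, Ifit1 and Isg15; and with RLE factors for Acaca, and with the replicate block for Cdh5, Smad3, Dnajb1, Acaca, Kl and Calb1. The sign turned for 9 genes, none of them called: Cxcr2 (0.442) was -0.109 with limma-voom and -0.257 to 0.997 with 1 library left out; S100a9 (0.115) was -0.481 with limma-voom, -0.074 with a replicate block and -0.33 to 0.513 with 1 library left out; Retnlg (0.0854) was -0.0331 with library size only, -0.779 with limma-voom, -0.149 with a replicate block and -0.314 to 0.493 with 1 library left out. Akr1b7 (-0.0913) was -0.252 to 0.164 with 1 library left out. Star (0.0713) was -0.0352 with library size only and -0.123 to 0.279 with 1 library left out. Lcn2 (0.163) was -0.00373 with limma-voom, -0.283 with a replicate block and -0.364 to 0.39 with 1 library left out. Ccl2 (-0.0906) was -1.01 to 0.27 with 1 library left out. Pck1 (-0.0107) was -0.185 to 0.13 with 1 library left out. Hdac2 (0.0263) was -0.0856 with library size only, -0.00636 with at least 1 CPM in 4 libraries and -0.0898 to 0.121 with 1 library left out. The cause was not tested. Among genes at 1 CPM or more, fold changes had a median SE of 0.17 on the log2 scale, the precision that 4 libraries a group gave.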
